A study of Homo sapiens with 2 samples.

Results

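Keratins KRT7, KRT8, KRT17, KRT18, KRT19, KRT20 and KRT23 were followed through 2 single-cell RNA libraries of colon organoids. The 7 genes were taken by symbol from the 36601 genes of the deposited feature lists, and 48 other keratin genes are listed there. The organoids were grown from the established human iPSC line 1383D6. One library came from untreated organoids (CNT) and the other from organoids given TNF-α, IFN-γ and IL-1β together for 8 days (3CK). The series title names ulcerative colitis as the disease modelled, so the comparison bears on the response of the organoid cells to inflammatory cytokines. Both libraries come from 1 cell line and each group is 1 library. The cytokine doses and the number of organoids pooled are not known from the sources used here. No test across replicates was possible, so every interval below is a 95% interval that covers counting error only.

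Keratins are the intermediate filament proteins of epithelial cells, and a filament needs both a type II and a type I partner. KRT8 and KRT18 are the first pair laid down in simple epithelia such as gut and liver. KRT19 and KRT20 join them in intestinal epithelium, KRT7 is typical of ductal and bladder epithelium, and KRT17 is a keratin of basal and wounded epithelium.

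The matrices count unique molecular identifiers (UMIs), each the tag of 1 captured transcript at its 3′ end, so levels can be set side by side between genes without a length correction. After filtering, 2487 CNT and 1398 3CK cells remained, with medians of 28911 and 62746 UMIs. Epithelial cells were those with at least 2 EPCAM UMIs per 10000, which held for 1660 CNT cells (66.7%) and 1016 3CK cells (72.7%). Mesenchymal cells were those with at least 5 UMIs per 10000 of COL1A1, COL1A2 and COL3A1 together and under 1 of EPCAM, which held for 574 CNT cells (23.1%) and 124 3CK cells (8.87%). The other 253 CNT and 258 3CK cells belonged to neither class. The sample titles speak of epithelial cells alone, so the mesenchymal class goes against them. The epithelial markers CDH1, CLDN3, CLDN4, CLDN7, ELF3 and ESRP1 were all detected in the epithelial class, as were the hepatic markers, which summed to 98578 CPM (UMIs scaled to a class total of 1000000) in CNT and 32838 CPM in 3CK. The hindgut factor CDX2 stood at 80.6 and 83.3 CPM there, and MUC2, the mucin that defines goblet cells, at 1.04 and 0.642 CPM. Of the other goblet markers, ZG16 was at 1338 and 761 CPM, TFF3 at 128 and 38.2 CPM, FCGBP at 3.05 and 0.128 CPM, and SPDEF at 1.89 and 3.39 CPM. The mesenchymal markers DCN, LUM, PDGFRA, PDGFRB and POSTN were all detected in the mesenchymal class, where EPCAM was at 20.5 and 17.2 CPM.

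In the epithelial cells KRT18 and KRT8, the main filament pair, were more than 2-fold higher in 3CK, while KRT19 stayed near its CNT level and KRT7 was lower. KRT20 and KRT23, both under 30 CPM, differed by less than 2-fold. KRT17 was lower in 3CK, but under 10 CPM in both libraries. Without replicates, a keratin was counted as different where its levels differed by at least 2-fold and the higher of them was 10 CPM or more. Of the 7 keratins, 6 reached 10 CPM, of which 2 were higher and 0 were lower in 3CK. Among all 9786 genes at that level, 7.88% were at least 2-fold higher and 7.62% at least 2-fold lower, with a median log2 ratio of 0.07.

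KRT8, the type II partner of the pair (ENSG00000170421, chr12:52897187-52949954, minus strand, GRCh38 with GENCODE v44), was at 3111 CPM (3098 to 3123) in CNT and at 7117 CPM (7097 to 7137) with cytokines. The log2 ratio of 3CK to CNT was 1.19 (1.187 to 1.201). KRT18, its type I partner (ENSG00000111057, chr12:52948871-52952906, plus strand), was at 4303 CPM (4288 to 4318) in CNT and at 10938 CPM (10913 to 10962) with cytokines, a log2 ratio of 1.35 (1.34 to 1.35). KRT18 was thus the most abundant of the 7 keratins in epithelial cells of both libraries. The annotated KRT8 and KRT18 genes overlap by 1084 bases on opposite strands, at the 5′ end of each, whereas UMIs were captured at the 3′ end. GENCODE v44 also lists 51 KRT8 and 68 KRT18 pseudogenes, and the deposited feature lists hold 0 of them. Reads shared with such copies could not be told apart, so the absolute levels of both genes are uncertain.

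KRT7, the other type II keratin (ENSG00000135480, chr12:52232520-52252186, plus strand), was at 395 CPM in CNT against 257 CPM in 3CK, a log2 ratio of -0.62 (-0.64 to -0.59). KRT19, a type I keratin of simple epithelia (ENSG00000171345, chr17:41523617-41528308, minus strand), was at 2328 CPM in CNT against 2054 CPM in 3CK, a log2 ratio of -0.18 (-0.19 to -0.17). Neither difference reached 2-fold. KRT19 has 5 pseudogenes and KRT17 has 8 in the same annotation, so their levels carry the same doubt.

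KRT20, the type I keratin of differentiated intestinal and urothelial surface cells (ENSG00000171431, chr17:40875889-40885242, minus strand), was at 27.4 CPM (2086 UMIs) in CNT and at 23.4 CPM (1642 UMIs) in 3CK, a log2 ratio of -0.23 (-0.32 to -0.13) that turned to 0.18 when every cell was given equal weight. KRT23 (ENSG00000108244, chr17:40922700-40937646, minus strand), another type I keratin, was at 12.9 CPM in CNT against 14.5 CPM in 3CK, a log2 ratio of 0.16 (0.04 to 0.29). KRT17 (ENSG00000128422, chr17:41619442-41624842, minus strand) was at 7.85 CPM (598 UMIs) in CNT and at 1.04 CPM (73 UMIs) in 3CK. Its log2 ratio of -2.91 (-3.29 to -2.56) rested on few cells, since the 10 cells with the most KRT17 held 66.2% of its UMIs in CNT and 60.3% in 3CK. With every cell given equal weight, the KRT17 ratio was -0.50. The 10 cells with the most KRT20 held 41.7% of its UMIs in CNT and 39.1% in 3CK.

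**Figure D1:**
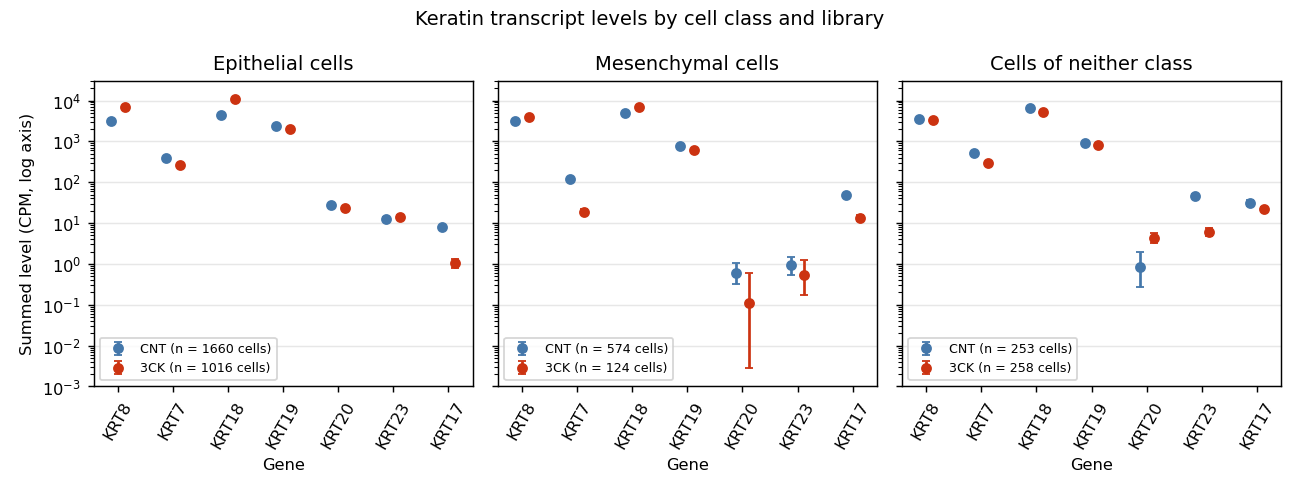
Summed level of each keratin (CPM, log axis) in epithelial cells, mesenchymal cells and cells of neither class, with CNT in blue and 3CK in red; bars are 95% Poisson intervals for counting error, mostly hidden by the points. KRT8 and KRT18 lie at 3111 CPM or more in every class and library, whereas KRT20 and KRT23 lie under 1 CPM in mesenchymal cells.

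The higher KRT8 and KRT18 levels of 3CK were spread over most epithelial cells. Cells with at least 10000 UMIs (1013 in CNT, 730 in 3CK) were compared on UMIs per 10000. For KRT18 the 10th percentile, median and 90th percentile over cells were 4.64, 18.2 and 90.1 in CNT, against 23.3, 94.7 and 182 in 3CK. The 10th percentile in 3CK thus lay above the CNT median. For KRT8 the same percentiles were 5.74, 18.0 and 59.2 in CNT, against 21.4, 65.6 and 112 in 3CK. For KRT19 they were 6.21, 18.6 and 41.2 in CNT, against 5.14, 16.8 and 36.2 in 3CK, so that the distributions nearly coincided. In CNT the median epithelial cell carried KRT8, KRT18 and KRT19 at about the same level, and in 3CK KRT19 stood well below the other two.

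The libraries differ in depth, with a median of 37785 UMIs per epithelial cell in CNT and 72198 in 3CK, so cells were also thinned to 5000 UMIs, which kept 1062 CNT and 776 3CK epithelial cells. Of the thinned 3CK cells, 92.4% had more KRT18 than the CNT median of 9 UMIs and 51.8% had more than the CNT 90th percentile of 45 UMIs. For KRT8 the shares were 90.5% above the CNT median and 54.6% above the CNT 90th percentile. The CNT 99th percentile was passed by 1.03% of them for KRT18 and 1.93% for KRT8, so nearly all lay within the range that CNT cells spanned. For KRT19, 40.7% of 3CK cells were above the CNT median and 6.70% above the 90th percentile.

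**Figure D2:**
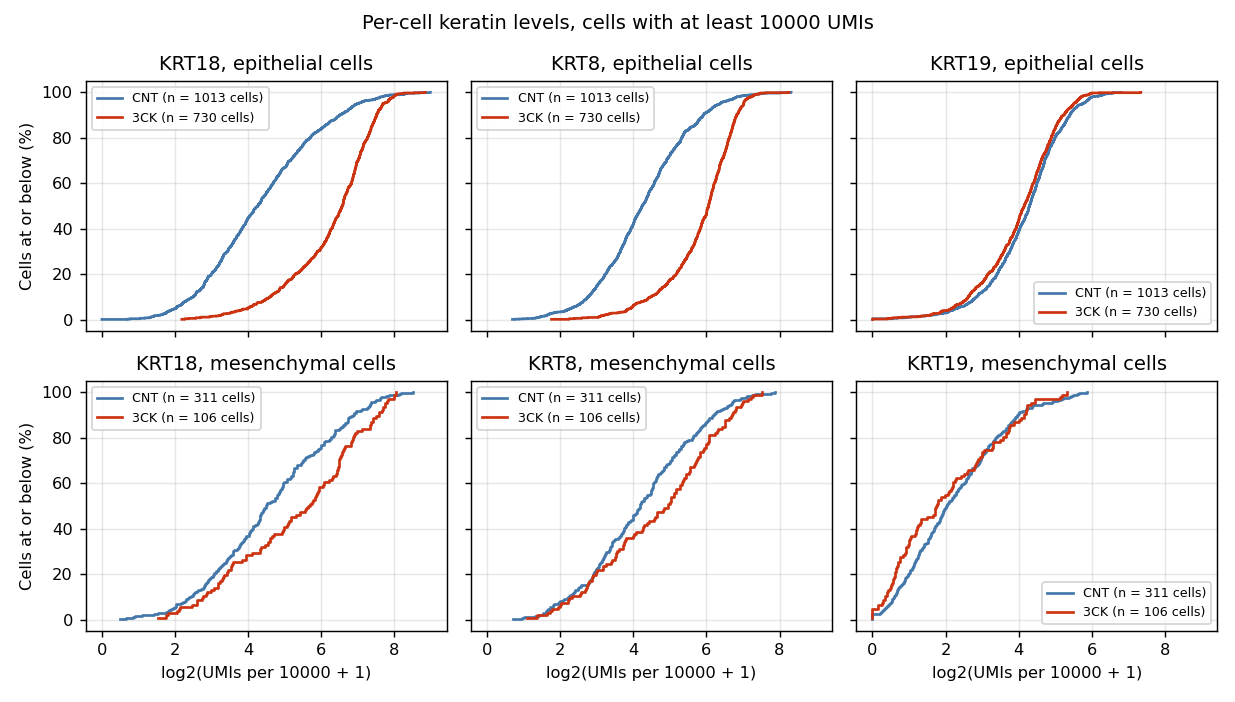
Cumulative share of cells (%) against the level per cell, as log2(UMIs per 10000 + 1), for KRT18, KRT8 and KRT19 in cells with at least 10000 UMIs; epithelial cells are in the upper row and mesenchymal cells in the lower row, with CNT in blue and 3CK in red. The epithelial KRT18 and KRT8 curves of 3CK lie to the right of CNT over most of their length, while the KRT19 curves nearly coincide.

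The mix of keratins shifted accordingly. Together the 7 keratins made up 1.02% of all UMIs in CNT epithelial cells and 2.04% in 3CK. KRT18 made up 42.3% of these keratin UMIs in CNT and 53.6% in 3CK, and KRT8 30.5% and 34.9%. KRT19 went from 22.9% to 10.1% and KRT7 from 3.88% to 1.26%. The ratio of type II to type I UMIs was 0.525 in CNT and 0.566 in 3CK. Over cells, KRT8 and KRT18 were closely tied, with a Spearman rho of 0.91 in CNT and 0.90 in 3CK. KRT19 and KRT18 were less closely tied, at 0.50 and 0.57. These coefficients were computed on UMIs divided by the total of each cell, and describe cells of 1 library, which are not replicates.

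The less abundant keratins were detected in part of the cells, a share that depends on depth. Among unthinned epithelial cells with at least 10000 UMIs, KRT7 was detected in 73.3% in CNT and 60.8% in 3CK. After thinning to 5000 UMIs, KRT7 was detected in 38.5% of CNT epithelial cells (Clopper-Pearson interval 35.6 to 41.5), and in 29.1% (25.9 to 32.5) of those of 3CK, against 54.2% and 51.5% without thinning. KRT20 was detected in 5.37% (4.09 to 6.90) and 5.67% (4.15 to 7.54), and KRT23 in 4.33% (3.19 to 5.74) and 6.70% (5.04 to 8.69). Without thinning these shares were 8.31% and 10.8% for KRT20, and 15.5% and 26.0% for KRT23. KRT17 was detected in 2.07% of CNT cells and in 3 of 776 3CK cells (0.387%), which is at the level of 3 counts. Mesenchymal cells, thinned to the same depth (320 in CNT and 107 in 3CK, from medians of 23450.5 and 65363 UMIs), give the level to set beside these shares. KRT20 was detected there in 2 CNT cells (0.625%) and KRT23 in 1 (0.313%), and both in 0 of 107 3CK cells, which allows a share of cells with a UMI of up to 2.80% (3 counts of the total) or 3.39% (Clopper-Pearson). KRT7 was detected in 10.3% of mesenchymal CNT cells and 3.74% of those of 3CK, below its epithelial shares. KRT17 was detected in 14.7% of mesenchymal CNT cells, above its epithelial share, and in 3 of 107 cells of 3CK (2.80%, 0.58 to 7.98). That 3CK share is at the level of 3 counts, and its interval overlaps the epithelial one (0.08 to 1.13). The epithelial shares of KRT20 and KRT23 in CNT were therefore above those in the mesenchymal class.

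KRT7 and KRT20 were detected together in 16 CNT cells and 7 3CK cells. In CNT, KRT20 was detected in 3.91% (2.25 to 6.28) of thinned epithelial cells with KRT7 and in 6.28% (4.54 to 8.42) of those without it. In 3CK the numbers were 7 of 226 cells and 37 of 550 cells (6.73%, 4.78 to 9.15). The difference between these shares was not tested. KRT23 was detected in 12.3% (5.08 to 23.7) of CNT cells with KRT20 and in 3.88% (2.77 to 5.27) of those without it. In 3CK the shares were 15.9% (6.64 to 30.1) and 6.15% (4.52 to 8.14).

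The KRT20 start site is shown because the intestinal factor gene CDX1 was among the genes whose levels followed KRT20 most closely over CNT epithelial cells. CDX1 was not among the 5 closest genes in 3CK, and a link between CDX1 and this site was not tested. The 250 bases before the RefSeq start site (GRCh38.p14, chr17:40885243-40885492, minus strand, written 5′ to 3′) are given below. Capitals mark a CCAAT box 79 to 75 bases before the start, and CATAAA 29 to 24 bases before it, which is the CDX motif TTTATG read on the other strand.
KRT20: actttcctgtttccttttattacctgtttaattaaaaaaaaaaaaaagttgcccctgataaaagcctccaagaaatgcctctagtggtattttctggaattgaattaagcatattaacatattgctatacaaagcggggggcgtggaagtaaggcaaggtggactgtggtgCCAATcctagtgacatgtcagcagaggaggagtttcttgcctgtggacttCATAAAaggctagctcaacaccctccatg
The promoter table covers 250 bases before to 50 after each start and held 2 of the 7 members, KRT8 and KRT20. Of its 35116 promoters, 34.6% hold CCAAT and 10.6% hold TTTATG on either strand. The other motifs searched on both strands were TATAAA (the TATA box), GGGCGG (the GC box), TTCNNNGAA (STAT), TGANTCA (AP-1), the interferon response element and the NF-κB site. None of these was present in the KRT20 window. The KRT8 entry belongs to a start site 21393 bases from the canonical one in GENCODE and held none of the 8 motifs.

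Genes that followed each keratin over cells differed between members. Spearman rho was computed over epithelial cells with at least 10000 UMIs, against every gene with a UMI in at least 10% of them. The closest genes named here leave out the keratins themselves. For KRT18 in CNT the closest were TNFRSF12A, the receptor for TWEAK (rho 0.72), the actin-binding PFN1 (0.66), the myosin light chain genes MYL12A (0.66) and MYL12B (0.63), and CLIC1 (0.64). In 3CK they were ACTB (0.62), CLIC1 (0.61), VDAC2 (0.58), POMP (0.58) and DYNLT1 (0.57). KRT8 followed ANXA2 (0.66 in CNT and 0.57 in 3CK), as did KRT19 (0.48 and 0.59).

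For KRT20 in CNT the closest genes were GPA33, a gut surface antigen (0.47), EMP1 (0.45), DISP2 (0.43), CDX1, an intestinal homeobox factor (0.42), and TSPAN8 (0.41). In 3CK they were TSPAN8 (0.33), PRSS3 (0.33), BTNL3 (0.32), EMP1 (0.31) and TRIM15 (0.30). KRT7 followed ARHGDIB (0.38) and ENO1 (0.37) in CNT, and CASP4 (0.42) and CYGB (0.37) in 3CK. Its rho with KRT18 was 0.42 in CNT and 0.13 in 3CK, and with KRT8 0.41 and 0.08. KRT23 reached 0.30 only with SFN, the 14-3-3 sigma gene, in CNT, and with no gene in 3CK. KRT17 had a UMI in under 10% of the cells of both libraries and was not compared. In sparse counts such as those of KRT20 and KRT23 a weak coefficient is no finding.

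The KRT8 and KRT18 differences were unlike in size across ranges of the hepatic transcript TTR, a contrast that could not be tested. TTR encodes transthyretin, a plasma carrier protein, and its own level was 64857 CPM in CNT epithelium against 19491 CPM in 3CK, so a range of TTR does not hold matching cells in both libraries. Among cells with at least 300 TTR UMIs per 10000 (696 in CNT, 151 in 3CK), KRT18 was at 3482 CPM in CNT against 10977 CPM in 3CK, a log2 ratio of 1.66 (1.65 to 1.67). Among cells with 30 to 300 (257 and 423), it was at 5013 and 11436 CPM, a log2 ratio of 1.19 (1.18 to 1.20). Among cells under 30 (60 and 156), it was at 11971 CPM in CNT against 9516 CPM in 3CK, a log2 ratio of -0.33 (-0.35 to -0.32). KRT18 in CNT thus differed more than 3-fold between the highest and lowest TTR range, whereas in 3CK it stayed between 9516 and 11436 CPM.

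KRT8 showed the same order, with log2 ratios of 1.44, 0.99 and -0.11 from the highest to the lowest TTR range. KRT7 was at 285, 461 and 1540 CPM in the same order in CNT, and at 187, 264 and 318 CPM in 3CK. The gap between its sums was thus widest in cells with little TTR. The shares of cells with a KRT7 UMI varied little, at 73.7%, 71.6% and 76.7% in CNT and 57.6%, 62.2% and 60.3% in 3CK. The CNT sum at low TTR (6723 UMIs in 60 cells) can therefore rest on few cells. KRT19 was at 2181, 2699 and 2966 CPM in CNT and at 2025, 2083 and 2031 CPM in 3CK. KRT20 was at 20.7, 55.2 and 5.96 CPM (26 UMIs) in CNT and at 22.8, 25.9 and 16.7 CPM in 3CK. It was thus highest in the middle range of both. The shares of cells with a KRT20 UMI differed less, at 11.4%, 16.0% and 11.7% in CNT and 11.9%, 14.7% and 13.5% in 3CK. KRT23 was at 8.70, 20.2 and 39.6 CPM in CNT, against 13.2, 14.5 and 16.4 CPM in 3CK. The part of the differing TTR ranges in the keratin differences was not tested.

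**Figure D3:**
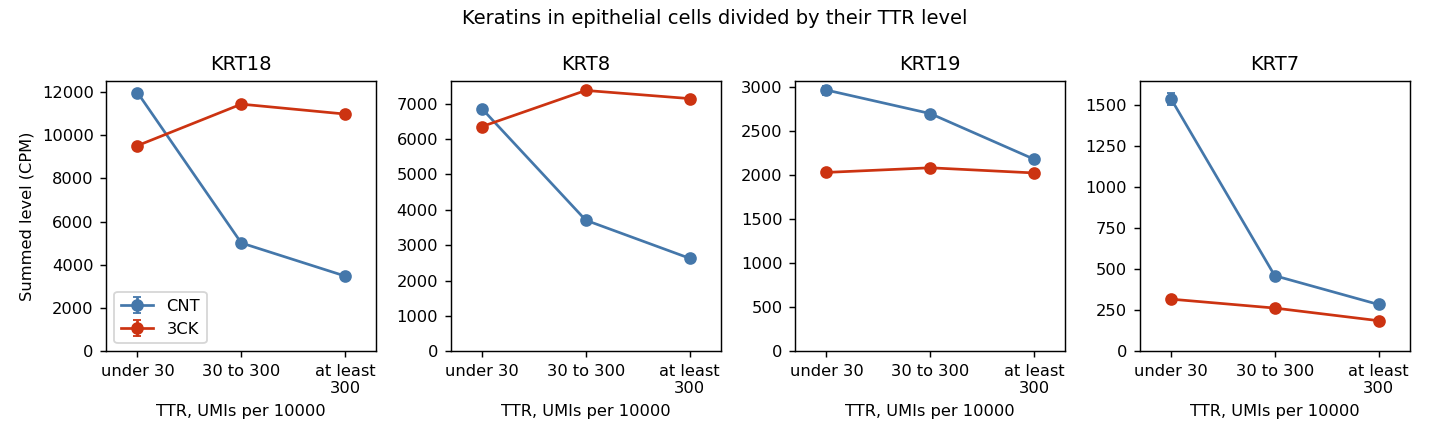
Summed level (CPM) of KRT18, KRT8, KRT19 and KRT7 in epithelial cells with at least 10000 UMIs, divided by TTR (under 30, 30 to 300 and at least 300 UMIs per 10000), with CNT in blue and 3CK in red and 95% Poisson intervals as bars. In CNT, KRT18 goes from 11971 CPM at low TTR to 3482 CPM at high TTR, while the 3CK values stay between 9516 and 11436 CPM.

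Divisions of the epithelial cells by cycling and absorptive genes left KRT18 at least 2-fold higher in 3CK. Cells with at least 1 UMI per 10000 of the cycling genes MKI67 and TOP2A (39 in CNT, 27 in 3CK) had 4836 CPM in CNT against 10164 CPM in 3CK. Cells with at least 10 UMIs per 10000 of FABP2, RBP2 and APOA4, genes of absorptive enterocytes (492 and 263 cells), had 3798 and 11113 CPM, and cells below that level had 4798 and 10893 CPM. KRT20 was higher in the former cells than in the latter, at 41.5 against 14.2 CPM in CNT and 29.4 against 20.3 CPM in 3CK. It had a UMI in 16.3% against 9.02% of these cells in CNT, and in 16.3% against 12.4% in 3CK. Only 3 CNT and 2 3CK cells had at least 10 UMIs per 10000 of the granin genes CHGA, CHGB, SCG2 and SCG5, and their KRT18 level was 475 CPM (61 UMIs) in CNT and 613 CPM (79 UMIs) in 3CK. That log2 ratio of 0.37 (-0.13 to 0.87) was under 2-fold, with an interval that spans 0.

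The 8 mesenchymal markers summed to 515 CPM in CNT epithelial cells and 95.4 CPM in 3CK epithelial cells, with 0 of them at 0. In epithelial cells with under 1 UMI per 10000 of the 3 collagens (709 in CNT, 658 in 3CK), KRT18 was at 4009 and 11196 CPM, a log2 ratio of 1.48, and KRT8 had a log2 ratio of 1.29. The ratios of both genes were thus as large in cells with little collagen transcript. KRT17 was at 3.25 and 0.916 CPM in those cells, a log2 ratio of -1.83 (-2.28 to -1.39). CXCL10, an interferon-induced chemokine, divided the 3CK cells into ranges that were chosen after the data were seen. KRT18 was at 10076 CPM in the 307 3CK cells with under 1 CXCL10 UMI per 10000, at 11509 CPM in the 197 cells with 1 to 10 and at 11497 CPM in the 226 cells with at least 10. KRT20 was at 32.1, 30.8 and 8.80 CPM in the same ranges, with a UMI in 17.3%, 12.2% and 10.6% of the cells. These KRT20 sums can rest on few cells.

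In CNT the mesenchymal cells carried KRT8 and KRT18 at levels close to those of the epithelial cells, and in 3CK at lower levels than the epithelial cells. KRT18 was at 4930 CPM in CNT against 6968 CPM in 3CK mesenchymal cells, a log2 ratio of 0.50 (0.48 to 0.51). KRT8 was at 3217 and 4023 CPM, a log2 ratio of 0.32 (0.30 to 0.34). KRT19 was at 762 and 622 CPM, a log2 ratio of -0.29 (-0.34 to -0.25). None of the 3 reached 2-fold.

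KRT7 and KRT17 were the keratins at least 2-fold lower in 3CK mesenchymal cells. With 2308 UMIs in CNT and 175 in 3CK, KRT7 was at 117 and 19.2 CPM, a log2 ratio of -2.61 (-2.84 to -2.39), and 10 of the 574 CNT cells held 78.7% of its UMIs. KRT17 was at 49.7 and 13.6 CPM, a log2 ratio of -1.87 (-2.15 to -1.60), and 10 CNT cells held 42.9% of its UMIs. In 3CK, 10 of the 124 cells held 76% of the KRT7 UMIs, and 10 held 75% of the KRT17 UMIs. Both differences thus rest on few cells. Of the 7 keratins, 5 reached 10 CPM in this class, with 0 higher and 2 lower in 3CK. Among 10272 genes at that level, 4.8% were at least 2-fold higher and 9.59% at least 2-fold lower, with a median log2 ratio of -0.12. KRT20 had 12 UMIs and 1 UMI in the CNT and 3CK libraries, and KRT23 had 18 and 5. With every cell given equal weight the lower count was 3, since KRT20 joined it on those few UMIs.

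**Figure D4:**
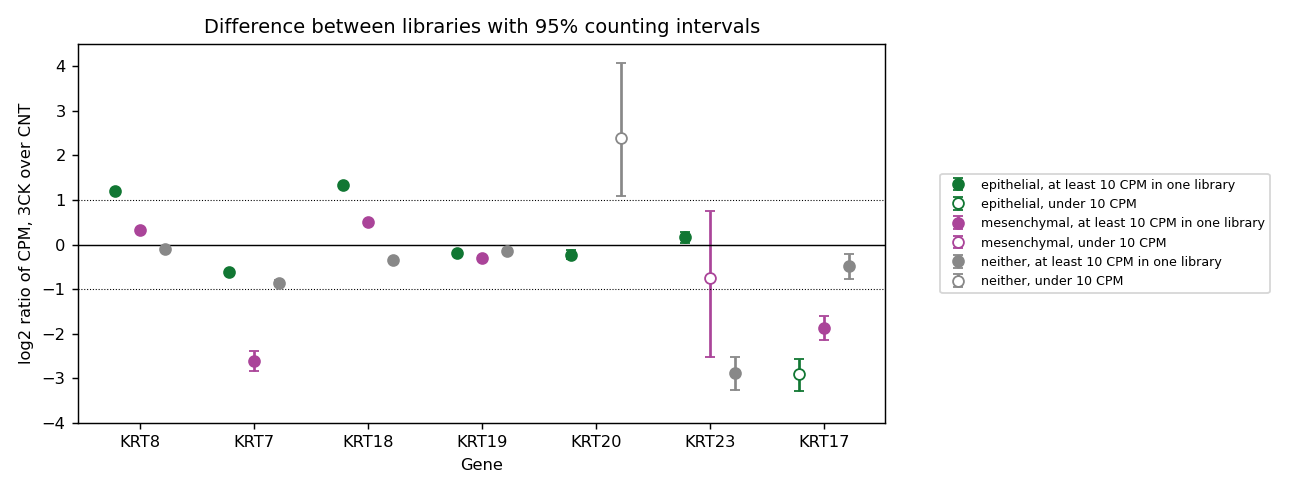
Log2 ratio of CPM, 3CK over CNT, of each keratin in epithelial, mesenchymal and other cells, with 95% counting intervals; open circles mark sums under 10 CPM in both libraries, dotted lines mark 2-fold, and mesenchymal KRT20 (1 UMI in 3CK) is left out. KRT8 and KRT18 exceed 2-fold in epithelial cells only, at 1.19 and 1.35.

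Keratin levels in mesenchymal cells were set beside those of other epithelial transcripts. Of 16 epithelial reference transcripts, among them TTR, APOA1, CDH1 and CLDN4, the median mesenchymal level was 3.14% of the epithelial level in CNT (range 1.69 to 45.0) and 2.56% in 3CK (0.935 to 42.8). TTR, the most abundant, was at 2.17% and 1.22%. KRT18 was at 115% (114 to 115) of its epithelial level in CNT and 63.7% (63.2 to 64.2) in 3CK, and KRT8 at 103% and 56.5%. Both lay above all 16 reference transcripts in both libraries. KRT19 was at 32.8% and 30.3%, under GRHL2 and CDX2 in CNT and under CDX2 and ELF3 in 3CK, and KRT7 was at 29.8% and 7.47%. KRT17 was higher in mesenchymal than in epithelial cells, at 633% (571 to 702) in CNT and 1306% (971 to 1769) in 3CK. The 3CK value rests on 124 mesenchymal and 73 epithelial UMIs, and 10 cells held 75% of the mesenchymal ones. KRT23 was at 7.09% and 3.79%, within the range of the reference transcripts, and KRT20 at 2.23% in CNT, within it, and at 0.468% (1 UMI) in 3CK, below it.

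**Figure D5:**
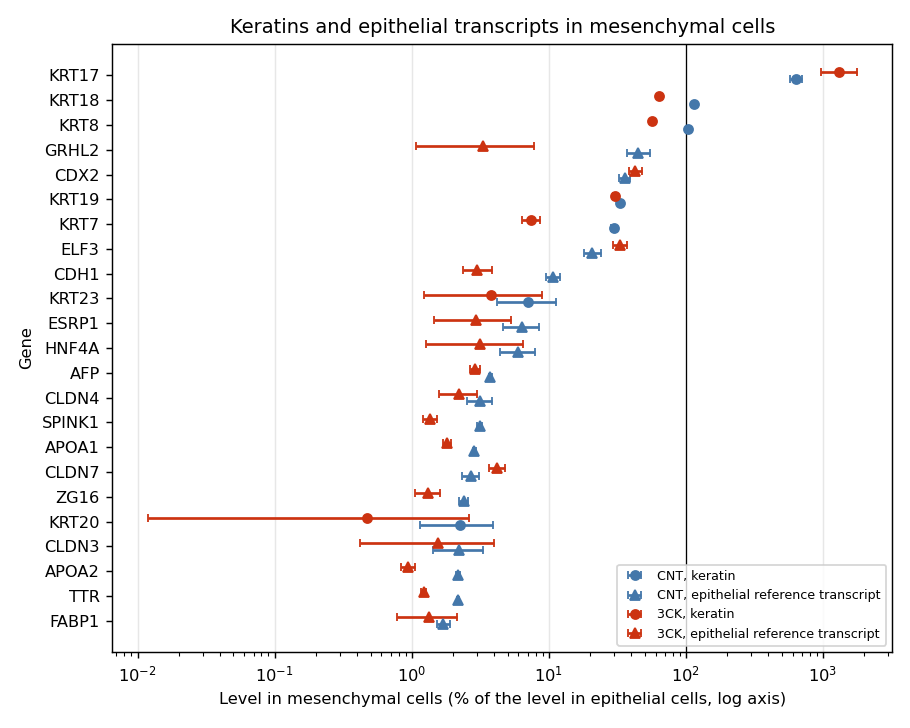
Level in mesenchymal cells as a percentage of the level in epithelial cells of the same library (log axis), for the 7 keratins (circles) and 16 epithelial reference transcripts (triangles), with CNT in blue, 3CK in red and 95% counting intervals as bars; the vertical line marks 100%. KRT8, KRT18 and KRT17 lie to the right of every reference transcript in both libraries, whereas KRT20 lies among them in CNT and below them in 3CK, at 0.468%.

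KRT18 varied widely among mesenchymal cells. Over cells with at least 10000 UMIs (311 in CNT, 106 in 3CK), the 10th percentile, median and 90th percentile were 4.39, 21.5 and 116 UMIs per 10000 in CNT, against 6.0, 50.2 and 185 in 3CK. The 10th percentile differed less than the median. KRT8 followed KRT18 over these cells, with a Spearman rho of 0.93 in CNT and 0.94 in 3CK. The closest other genes in CNT were S100A10 (0.68), ANXA2 (0.64), MYL12B (0.58), ANXA1 (0.57) and ARPC5 (0.57). In 3CK they were NNMT (0.69), PCDH11X (0.63), BMP4 (0.55), SBSPON (0.54) and S100A10 (0.53).

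Mesenchymal cells were divided by their own KRT18 level, with limits chosen after the data were seen, to set other genes beside it as a description. In CNT, 84 cells had under 10 KRT18 UMIs per 10000, 140 had 10 to 50 and 87 had at least 50. EPCAM, which the class rule holds under 1 UMI per 10000, was at 20.4, 20.1 and 22.3 CPM in these ranges, and TTR at 947, 1041 and 843 CPM. The epithelial cadherin CDH1 was at 6.72, 7.12 and 26.9 CPM, highest in the cells with most KRT18. The collagen gene COL3A1 was at 5438, 3611 and 1600 CPM, and VIM, the mesenchymal intermediate filament gene, at 2925, 3953 and 4112 CPM. Of 5 mesothelial markers, 4 were highest in the cells with most KRT18: UPK3B at 2.16, 0.804 and 21.2 CPM, LRRN4 at 19.9, 19.1 and 34.9 CPM, BNC1 at 11.5, 16.5 and 35.0 CPM, and CALB2 at 4.08, 2.18 and 9.97 CPM. The other, WT1, was at 1.44, 3.33 and 0.935 CPM. The median cell had 0 UMIs of UPK3B, CALB2 and WT1 in every range, so these sums can rest on few cells. MSLN, the remaining mesothelial marker, was not set against KRT18. The smooth muscle gene ACTA2 was also highest in the cells with most KRT18, at 46.3, 99.9 and 131 CPM. DES, another smooth muscle gene, was at 66.3, 69.0 and 74.8 CPM. The part of the mesothelial and smooth muscle genes in the KRT18 levels was not tested. The 6 mesothelial markers summed to 64.5 CPM in CNT against 54.3 CPM in 3CK over all mesenchymal cells. In 3CK, 22, 31 and 53 cells fell in the same ranges. COL3A1 was at 1304, 1279 and 1492 CPM in them, EPCAM at 20.5, 13.6 and 18.0 CPM, and CDH1 at 4.20, 7.79 and 8.67 CPM. UPK3B (0, 1.56 and 12.1 CPM), LRRN4 (2.62, 8.57 and 13.7) and BNC1 (23.1, 24.5 and 36.7) were again highest in the cells with most KRT18. CALB2 (2.62, 0.779 and 0.434 CPM) and WT1 (1.05, 0.389 and 0.217) went the other way. ACTA2 was at 31.5, 30.4 and 231 CPM in 3CK, and DES at 100, 83.4 and 79.6 CPM. KRT7 was at 15.6, 16.2 and 318 CPM in CNT and at 5.25, 34.7 and 15.6 CPM in 3CK. KRT17 was at 26.6, 28.9 and 94.4 CPM in CNT and at 3.15, 24.5 and 11.9 CPM in 3CK. In the middle range KRT7 was thus higher in 3CK, and KRT17 was near its CNT level.

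Cells of neither class went the other way in their sums. KRT18 was at 6482 CPM in CNT against 5129 CPM in 3CK, a log2 ratio of -0.34, and KRT8 at 3575 and 3336 CPM, a log2 ratio of -0.10. The sums rested on few cells, with 61.4% of the CNT KRT18 UMIs in 10 cells. The median cell with at least 10000 UMIs had 4.65 KRT18 UMIs per 10000 in CNT and 19.3 in 3CK, so the middle of the distribution was higher in 3CK. Of the 7 keratins, 6 reached 10 CPM, with 0 higher and 1 lower, against 6.6% and 14.5% of 11864 genes. The lower one was KRT23, at 45.8 and 6.17 CPM, with 97.1% of the CNT UMIs in 10 cells. Over all kept cells 1 of 7 keratins was higher (KRT18, 1.10) and 1 lower (KRT17, -1.74), against 6.43% and 7.34% of 10259 genes, and KRT8 was just short of 2-fold at 0.99.

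Few other keratins were expressed in the epithelial cells. Of the 48, 3 reached 10 CPM and 10 had 0 UMIs in both libraries. KRT10 was at 280 CPM in CNT against 210 CPM in 3CK, KRT13 at 10.8 and 8.36 CPM, and KRT222 at 15.8 and 2.35 CPM, a log2 ratio of -2.75. KRT6A, a keratin of wounded squamous epithelium, was at 2.64 and 7.40 CPM, and KRT24 went from 309 to 9 UMIs. KRT15, KRT80 and KRT81 lay between 1 and 8 CPM. KRT5, the basal keratin of stratified epithelia, had 1 UMI in CNT and 0 in 3CK. In cells of neither class KRT81 went from 2 to 112 UMIs and KRT6B from 0 to 28, and in mesenchymal cells KRT34 had 9 and 15 UMIs.

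Partners of the filaments were taken as lists, here in epithelial cells. Of all 9786 genes at 10 CPM or more in this class, 7.88% were at least 2-fold higher and 7.62% at least 2-fold lower. The desmosome genes, whose proteins anchor keratin filaments at cell contacts, had 8 of 14 members at 10 CPM or more, with 0 higher, 0 lower and a median log2 ratio of 0.30. PERP was the most abundant, at 432 CPM in CNT against 507 CPM in 3CK, and the ratios ran from -0.07 (DSC2) to 0.85 (DSG2) and 0.71 (DSP, desmoplakin). Of the hemidesmosome and plakin genes, which include those that link keratins to the basement membrane, 7 of 8 reached 10 CPM. There ITGB4 was higher (29.9 and 75.8 CPM, 1.34), 0 were lower, and the median was 0.79. PLEC, the keratin linker plectin, had a log2 ratio of 0.96, and PPL one of -0.15.

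Of the 8 keratin-binding genes, all reached 10 CPM. TCHP, which encodes the KRT8 and KRT18 binding protein trichoplein, was higher (10.1 and 67.5 CPM, 2.74), 0 were lower, and the median was 0.43. YWHAZ, the most abundant, was at 324 and 430 CPM. Of the other intermediate filament genes 4 of 15 reached 10 CPM, with NES (nestin) higher at 1.37, 0 lower and a median of 0.38. VIM had a ratio of -0.51 in these cells. These 4 list medians stand beside 0.07 for all 9786 genes, of which 7.88% were higher and 7.62% lower. With so few members per list, counts of 0 or 1 were not read as results.

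The epithelial transcription and splicing factors had 14 of 19 members at 10 CPM or more and a median of -0.14. ELF3 was higher, at 50.9 and 103 CPM, and FOXA1 lower, at 61.0 and 19.3 CPM (-1.66), whereas CDX2 had a ratio of 0.05. The wound and fetal-like epithelial genes had 12 of 15 members at that level, with 5 higher, 0 lower and a median of 0.96, beside 7.88% higher and 7.62% lower of all 9786 genes. AREG, an EGF receptor ligand, was at 233 and 1232 CPM, PLAUR, the urokinase receptor, at 40.2 and 281 CPM, and MMP7, a matrix protease, at 0.617 and 45.7 CPM. The other higher members were ANXA1 and CCN1, while CLU had a ratio of -0.54. The list was chosen with earlier results of these data known, so its count cannot serve as a test against all genes. TNFRSF12A, the gene closest to KRT18 in CNT apart from keratins, was at 405 and 790 CPM, a log2 ratio of 0.96.

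In the mesenchymal cells 0 of 8 desmosome genes at 10 CPM or more were higher and 2 were lower (PKP4, -1.37, and DSC3, -1.17), with a median of -0.38. The hemidesmosome and plakin genes (3 of 8 at that level) had 0 higher and 0 lower, as did the keratin-binding genes (7 of 8) and the other intermediate filament genes (8 of 15). VIM was at 3763 CPM in CNT against 4570 CPM in 3CK there, below the KRT18 sums of both libraries. VIM was above KRT18 in cells with under 10 KRT18 UMIs per 10000, at 2925 against 543 CPM in CNT. In 3CK the values were 5196 and 624 CPM. VIM was also above KRT18 in cells with 10 to 50, at 3953 against 2521 CPM in CNT and 3795 against 2632 CPM in 3CK. In cells with at least 50, VIM was below KRT18, at 4112 against 11113 CPM in CNT and 4738 against 11992.5 CPM in 3CK. Of 5 transcription and splicing factors 2 were higher (ELF3, 1.69, and KLF4, 1.08), and of 10 wound and fetal-like genes 1 was higher (PLAUR, 1.38). Among all 10272 genes at that level in this class, 4.8% were higher and 9.59% lower.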

How the data were processed

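Per the labels' protocols, dissociated organoids went into 10x Genomics 3′ v3.1 capture, about 8300 cells per library. The authors deposited raw UMI counts for each gene and barcode, made with Cell Ranger 7.1.0 and GRCh38 per the submitters' processing notes. Annotation and cell calling: not given in the sources used here. Barcodes with at least 500 genes and at most 20% mitochondrial UMIs were kept. The highest Scrublet scores (scanpy 1.11.5) were then dropped as doublets, 52 in CNT and 16 in 3CK, a rate of 0.8% for every 1000 barcodes. The libraries shared 0 barcodes. At the kept totals of 101831571 and 91860414 UMIs, 3 UMIs equal 0.0295 and 0.0327 CPM.

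UMIs were summed per class and scaled by the class total. Intervals are exact Poisson for levels, exact binomial (on the 3CK share of both counts) for ratios and Clopper-Pearson for shares. The calculation was tested on simulated data. Coordinates come from GENCODE v44. The members and lists were chosen with earlier results of these data known. The genes named are the 7 keratins, other keratins with at least 1 CPM, markers, up to 5 genes per keratin with a Spearman rho of at least 0.3, and per list the member with the highest mean CPM and the 2 largest and 2 smallest ratios. ANXA1, CCN1 and CXCL10 were named after their values were seen. Alternatives were other cell filters, depth, cell weights, class limits, and scaling by the total without abundant genes or by TMM (edgeR 4.0.16).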

Additional observations from a re-analysis of the deposited data

Results flagged for a closer look

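The log2 ratio of 3CK to CNT had opposite signs in different cell classes for 3 keratins at 10 CPM or more, and no test of these differences was possible with 1 library per group. For KRT18 it was 1.35 in epithelial cells and 0.50 in mesenchymal cells, against -0.34 in cells of neither class. For KRT8 it was 1.19 in epithelial cells and 0.32 in mesenchymal cells, against -0.10 in cells of neither class. For KRT23 it was 0.16 in epithelial cells and -2.89 in cells of neither class. KRT20 also changed sign, from -0.23 in epithelial cells to 2.39 (1.08 to 4.07) in cells of neither class, where it was under 10 CPM with 5 and 55 UMIs. In that class 10 cells held 61.4% of the CNT UMIs of KRT18, 57.5% of those of KRT8 and 97.1% of those of KRT23, and the part of these cells in the differences was not tested.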

How the results depend on the processing

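The epithelial count of 2 higher keratins (KRT8 and KRT18) held under the 9 alternatives run for it. The mesenchymal count of 2 lower ones (KRT7 and KRT17) held under 7 of 8, and became 3 with every cell given equal weight, when KRT20 (12 UMIs against 1) joined. The epithelial count of lower keratins became 1 (KRT17 reached 10 CPM) with a total that omits mitochondrial and ribosomal genes and the 50 of highest level. Over all kept cells the count of higher keratins became 2 with no filter on cells, with every cell given equal weight and with TMM factors, each time by KRT8 passing 2-fold, and the count of lower keratins became 0 with every cell given equal weight. KRT18 in epithelial cells ranged from 1.23 to 1.48 over 9 alternatives, KRT8 from 1.08 to 1.29, and KRT17 from -3.19 to -0.50. In mesenchymal cells KRT18 ranged from 0.44 to 0.90 over 8 alternatives and KRT7 from -2.74 to -2.20. The sign differed for KRT20 with equal cell weights in epithelial (0.18) and all kept cells (0.17), for KRT23 over all kept cells with equal weights (0.16) or TMM (0.02), and for KRT23 in mesenchymal cells with stricter collagen limits (0.63). The median ratio of all genes in mesenchymal cells was -0.12 and became 0.08 with TMM, and in epithelial cells it went from 0.07 to -0.07 without the abundant genes. No paired analysis was possible because each group is 1 library. Depth limits KRT20 and KRT23 in mesenchymal cells, which rest on 1 to 18 UMIs, and 0 of 107 thinned 3CK cells allows a share with a UMI of up to 2.80% (3 counts) or 3.39% (Clopper-Pearson).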
